A study of Mus musculus with 16 samples.

Results

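The comparison set bone marrow whose cells had been tagged with LARRY barcodes against native bone marrow without such tags. Its members were chosen by their sample titles, as 9 of the 16 libraries of the series with 48996 cells. LARRY marrow gave 6 libraries with 26090 cells, from mice 1 to 4 of the main experiment and mice 1 and 2 of a replicate experiment. Native marrow gave 3 libraries with 22906 cells, namely 1 library of native hematopoiesis and the young libraries 1 and 2 of a native aging experiment. In every library, methylation of single CpG sites was read in single mouse cells by scTAM-seq, run on a Mission Bio Tapestri instrument. The labels call all of these cells immune cells of bone marrow. They give no strain, sex, age other than "young", sort gate or host, and they do not say whether the young libraries came from separate animals. The title of the series concerns the use of somatic changes in methylation to follow clones, and LARRY marrow is the setting in which a second, inserted label marks the clones.

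Methylation at a CpG is copied when a cell divides, but the copy can fail or a new mark can be laid down at random. Such an epimutation then passes to the offspring of that cell, so cells of 1 clone can share marks at several unlinked sites. Other CpGs lose or gain methylation as stem cells become myeloid, lymphoid or erythroid cells, and these sites vary together because they follow cell type. LARRY is a library of random DNA barcodes that a lentivirus inserts into isolated blood stem and progenitor cells, which are commonly given to a host afterwards. In scTAM-seq a methylation-sensitive restriction enzyme cuts the DNA before amplification, so that an amplicon gives reads where its CpG was methylated. The values are of a pair of kinds: the share of cells in which an amplicon was read, and the extent to which pairs of amplicons were read in the same cells.

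The panel held 663 amplicons, called by their panel identifiers here because the tables used do not pair them with genes, positions or sequences. The libraries held 3385 to 8329 cells and a median of 27421 to 89971 reads per cell, with the lowest medians in the young native libraries. Each cell was therefore thinned at random to 16962 reads, and shallower cells, from 1.41 to 9.99% of a library, were left out. After thinning the median cell had a read at 363 to 369 amplicons in main, 393 in both replicate and 391 to 400 in native libraries. A share near 50% in 1 library carries an exact 95% binomial interval of between 1.14 and 1.77 percentage points to either side. An amplicon read in 0 cells can still have a share of 0.0400% in the largest and 0.0962% in the smallest thinned library, by the limit of 3 counts. The reads carry no molecular identifiers, so these intervals and limits reflect counting error alone. Any 2 libraries had at most 29 cell barcodes in common, and at most 0.511% of the smaller library. LARRY libraries came from 2 experiments and native libraries from 2 others, so that arm and experiment cannot be told apart.

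The arms overlapped in mean methylation. Over the 417 intermediate amplicons, whose mean share lay between 25 and 90%, the average was 59.3, 57.9, 59.1 and 59.5% in main mice 1 to 4 and 64.5 and 65.0% in replicate mice 1 and 2. It was 65.5% in the native hematopoiesis library and 63.1 and 64.4% in young libraries 1 and 2. The 4 main mice were below all native libraries, while the replicate mice fell within the native range. The mean was 60.9% ± 3.05 (SD, n = 6) in LARRY and 64.3% ± 1.19 (SD, n = 3) in native marrow, a difference of -3.44 points. An exact two-sided permutation test over the 9 libraries gave p = 0.167, adjusted over 3 library values to 0.167, where 84 arrangements allow no p below 0.0238. Against all native libraries the replicate mice alone were 0.419 points higher, and without thinning the difference between the arms was -0.138 points.

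Amplicon by amplicon, more differences pointed to lower shares in LARRY marrow than to higher ones. In edgeR, the quasi-likelihood test of methylated against unmethylated cell numbers called 68 of 603 amplicons, or 11.3%, at a Benjamini-Hochberg adjusted p below 0.05. Of these, 14 (2.32%) were read in more and 54 (8.96%) in fewer cells of LARRY libraries. The median difference was 15.6 points among the former and -13.9 points among the latter, against -2.28 points over all amplicons tested, 414 of which had a negative difference. The 6 LARRY libraries lay entirely above the 3 native ones at 19 amplicons (3.15%) and entirely below them at 69 (11.4%), and 58 amplicons were both called and without overlap. The split of directions rests on the level of the whole library. With the median log odds of every library set equal, limma called 61 amplicons, 35 higher and 26 lower, so that 57.4% of calls were higher instead of 20.6%.

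The largest rise in log odds among called amplicons without overlap was at AMPL371172. It was read in 90.2, 87.3, 88.4 and 88.1% of cells of main mice 1 to 4 and in 77.2 and 87.0% of those of replicate mice 1 and 2. In the native hematopoiesis library and young libraries 1 and 2 it was read in 59.97, 63.5 and 55.1%. Replicate mouse 1 was the lowest LARRY library at AMPL371172 and still clearly above the highest native one. The difference in log odds was 1.5 with a standard error of 0.227 (edgeR adjusted p = 0.0107).

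AMPL365889 stood at 31.0 to 35.8% in main mice, 45.8 and 54.7% in replicate mice and 13.8 to 19.8% in native libraries. Here the replicate mice were farther from native marrow than the main mice were. AMPL388327 was read in 33.0 to 41.9% of main, 44.0 and 46.4% of replicate, and 32.9, 14.6 and 14.1% of native cells. Its native hematopoiesis library lay only just under main mouse 3, and the young libraries were far below. AMPL365790 lay at 94.5 to 97.0% in the LARRY and 86.1 to 92.9% in the native libraries. AMPL371663 lay at 35.6 to 54.9% in the LARRY and 22.1 to 34.3% in the native libraries, so that the arms of both barely separated.

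In the other direction, the largest fall in log odds was at AMPL388369. It was read in 89.8, 86.4, 69.2 and 72.4% of cells of main mice 1 to 4 and in 86.4 and 80.1% in the replicate mice. In the native libraries it was read in 92.7, 99.6 and 99.3% of cells. Main mice 3 and 4 were lower than the other LARRY libraries. The log odds difference was -2.84 with a standard error of 0.624 (edgeR adjusted p = 0.0238).

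AMPL365907 had the smallest p of all amplicons. It was read in 0.851 to 1.24% of cells of main mice, 1.37 and 1.40% of replicate mice, and 7.19, 3.57 and 7.58% of native libraries. LARRY libraries averaged 1.18% ± 0.209 (SD, n = 6) and native libraries 6.11% ± 2.21 (SD, n = 3), a log odds difference of -1.66 with a standard error of 0.219 (edgeR adjusted p = 0.00651). This amplicon was rare in both arms, and its 6 LARRY values were close together.

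AMPL371452 was read in 67.9 to 83.1% of LARRY and 87.0 to 96.6% of native cells. AMPL376402 stood at 93.8 to 95.9% in the LARRY and 96.2 to 99.9% in the native libraries, close to saturation in both. AMPL388687 was read in 11.1 to 23.0% of LARRY cells, but in 75.4, 26.4 and 48.3% of cells of the native hematopoiesis library and young libraries 1 and 2. The native libraries differed from each other at AMPL388687 by more than young library 1 differed from any LARRY library.

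**Figure D1:**
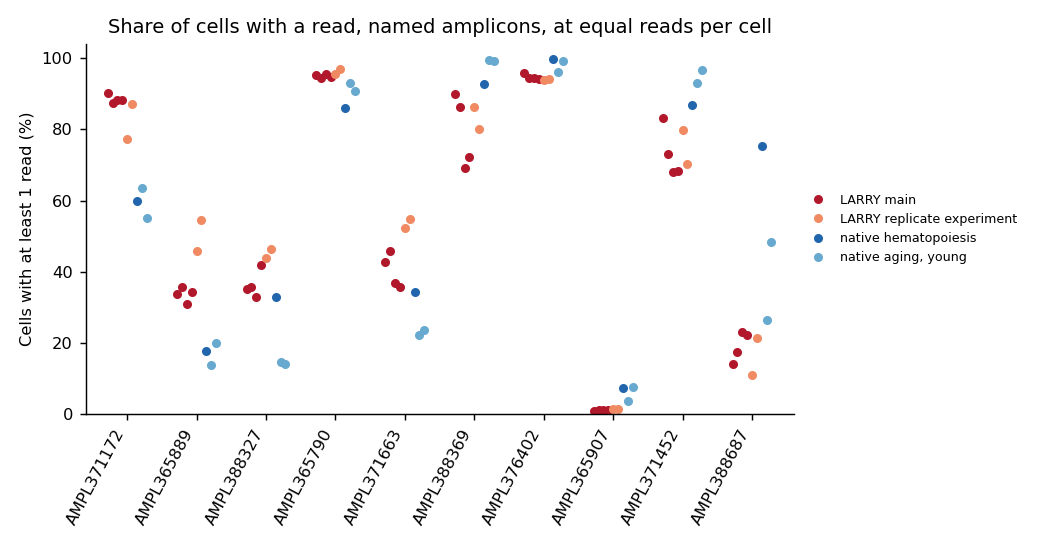
Share of thinned cells with at least 1 read (y axis, %) at the 10 named amplicons (x axis), with 1 point per library coloured by experiment; the first 5 were higher and the last 5 lower in LARRY marrow. At AMPL371172 the LARRY points lie from 77.2 to 90.2% and the native points from 55.1 to 63.5%, while the native points of AMPL388687 run from 26.4 to 75.4%.

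These calls depended on single libraries. In edgeR the count was 0 without young library 2 (99 at unadjusted p below 0.05), 32 without young library 1 and 106 without the native hematopoiesis library. It was 32, 9, 20 and 20 without main mice 1 to 4 in that order, and 60 and 50 without replicate mice 1 and 2. Main mice alone against native libraries gave 136 calls, 125 of them lower, and replicate mice alone gave 0 (132 at unadjusted p below 0.05). When 1 library was left out, AMPL371172 and AMPL365907 lost their calls only without young library 2, where their log odds differences were 1.41 and -1.52. AMPL365889, AMPL388369 and AMPL371452 lost theirs without main mouse 2 (1.17, -2.92 and -1.54), without young library 1 (1.02, -2.21 and -1.56) and without young library 2 (1.24, -2.38 and -1.19). AMPL365790 lost its call in 6 of 9 such fits and AMPL371663, AMPL388327, AMPL376402 and AMPL388687 in 8 of 9, with no change of direction. With the 4 experiments as the units of replication, limma called 0 amplicons, and 37 had an unadjusted p below 0.05.

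Co-variation was higher in each LARRY library than in any native one. It was measured on 3000 thinned cells per library over 470 amplicons, or 110215 pairs, whose share averaged 10 to 90% and stayed between 2 and 98% in each library. Each amplicon's call was first regressed on the cell's share of constitutive amplicons, the 85 that gave reads in 90% or more of the cells in all 9 libraries. The mean squared correlation over pairs, less the value that independent amplicons would give for that number of cells, was 2.98, 2.95, 2.59 and 3.01 (× 1000) in main mice 1 to 4. It was 3.33 and 3.61 in replicate mice 1 and 2, and 2.10 in each of the 3 native libraries.

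The lowest LARRY library, main mouse 3, was above every native library, and both replicate mice were above all main mice. The mean was 3.08 ± 0.350 (SD, n = 6) in LARRY and 2.10 ± 0.00360 (SD, n = 3) in native marrow, a ratio of 1.47 and a difference of 0.979. An exact two-sided permutation test gave p = 0.0238, the smallest that 84 arrangements allow, and 0.0357 after adjustment over the 3 library values. Between main mice alone and native libraries the difference was 0.784 and between replicate mice alone and native libraries 1.37, and the arms did not overlap in either. As means of the 4 experiments the difference was 1.08, and with 2 against 2 an exact test cannot go below p = 0.333. Thinning set the reads per cell equal here. It could not set equal the number of molecules read, since the reads carry no molecular identifiers. Without thinning the difference was 1.17. With the cell's methylated share as a further covariate it was 0.558, and the arms nearly met.

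**Figure D2:**
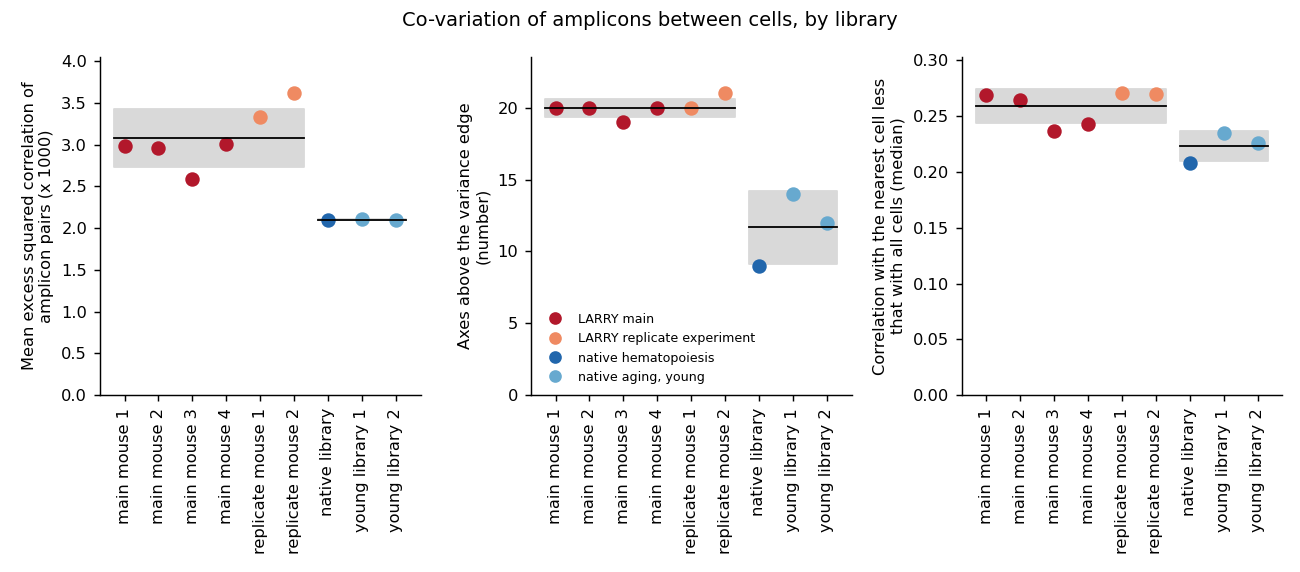
For each of the 9 libraries (x axis), the mean excess squared correlation of amplicon pairs (left, × 1000), the number of axes above the variance edge (middle) and the nearest cell value (right, correlation); points are libraries, lines are arm means and grey bands are ± 1 SD. LARRY libraries lie from 2.59 to 3.61, from 19 to 21 and from 0.237 to 0.270, and native libraries at 2.10, from 9 to 14 and from 0.208 to 0.235.

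LARRY libraries had both stronger leading axes and more axes of moderate variance. In a principal component analysis of each library, an axis was counted when its variance passed 1.95, the edge that 470 independent amplicons would reach in 3000 cells. Main mice 1 to 4 had 20, 20, 19 and 20 such axes, replicate mice 1 and 2 had 20 and 21, and the native hematopoiesis library and young libraries 1 and 2 had 9, 14 and 12. Axes 1 and 2 together held 6.88 to 8.03% of the variance in the LARRY and 6.00 to 6.14% in the native libraries. Those axes from 3 upwards that passed the edge held 11.2 to 14.2% in LARRY and 5.05 to 7.99% in native libraries. Axis 1 had a variance of 19.0 to 20.2 in LARRY libraries, 19.8 in the native hematopoiesis library and 18.1 and 15.2 in young libraries 1 and 2. Axis 2 had 12.3 to 15.3 in main mice, 17.0 and 17.6 in replicate mice and 8.79, 10.04 and 13.6 in the native libraries. The squared correlations of a library add up to the sum of its squared axis variances, which averaged 1222 in LARRY and 1007 in native libraries. Of that difference 75.2% lay in axes 1 and 2, where LARRY libraries ran from 541 to 716 and native libraries from 417 to 468. The remaining 24.8% lay in all axes from 3 upwards, whether or not they passed the edge. There the arms overlapped, at 574 to 658 and 538 to 589. By axis 10 the LARRY libraries stood at 2.83 to 3.83 and the native ones at 1.91, 2.17 and 2.13. With the cell's methylated share as a further covariate, axis 2 had 6.37 to 10.1 in LARRY and 6.96, 8.10 and 9.50 in native libraries. Axes 1 and 2 together then held 5.36 to 6.43% of the variance in LARRY and 5.24 to 5.72% in native libraries, so the arms overlapped. In that setting 19 to 21 axes passed the edge in LARRY libraries and 9 to 14 in native ones. These counts, variances and sums describe the libraries and were not tested.

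**Figure D3:**
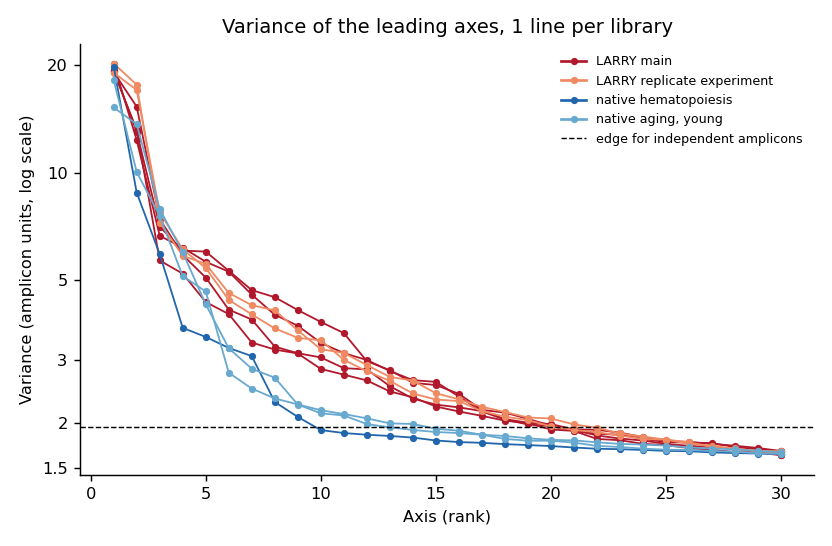
Variance of each axis (y axis, log scale, in units of 1 amplicon) against its rank (x axis), with 1 line per library coloured by experiment and a dashed line at the edge of 1.95 for independent amplicons. The lines start close together, at 15.2 to 20.2, and at axis 10 the LARRY lines lie from 2.83 to 3.83 and the native lines from 1.91 to 2.17.

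Whether these later axes were common to the mice was read by taking axes 3 to 15 from 1 set of 1500 cells of a library and measuring the variance along them elsewhere. Along the axes of main mouse 1, the mean variance was 3.84 in its own other cells, 3.63 in main mouse 2, 2.34 and 2.56 in main mice 3 and 4, 2.36 and 2.33 in replicate mice 1 and 2, and 1.93, 2.24 and 2.31 in the native libraries. The axes of main mouse 1 were thus nearly as strong in main mouse 2 as in the mouse that gave them, and much weaker elsewhere. Main mice 3 and 4 formed a second pair: along the axes of main mouse 3 the variance was 2.87 in its own cells and 3.08 in main mouse 4, against 2.63 and 2.46 in main mice 1 and 2. Protein counts were available for main mice 3 and 4 and not for main mice 1 and 2, and the part of that difference in the pairing was not tested.

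The replicate mice did not form such a pair. Along the axes of replicate mouse 1 the variance was 3.39 in its own cells and 2.37 in replicate mouse 2, and along those of replicate mouse 2 it was 3.46 in its own cells and 2.33 in replicate mouse 1. In the other libraries these axes held 1.89 to 2.34. Native axes were weaker in their own library, at 2.02 in the native hematopoiesis library and 2.40 and 2.53 in young libraries 1 and 2. The axes of young library 1 held 2.29 in young library 2, close to their own value, and those of the native hematopoiesis library held more variance in 8 of 8 other libraries, 2.09 to 2.38, than in its own cells.

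**Figure D4:**
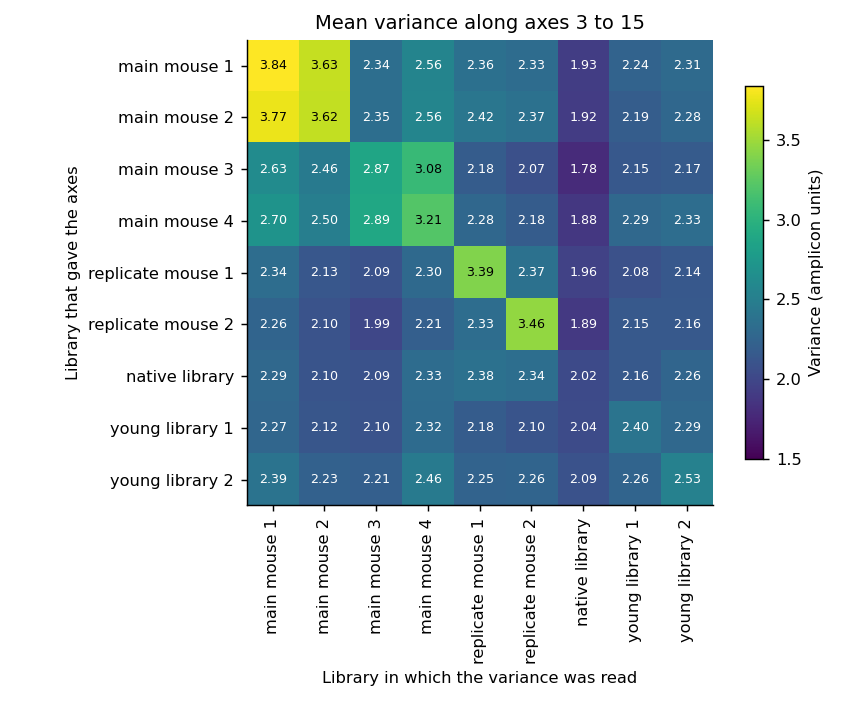
Mean variance (colour and printed value, in units of 1 amplicon) along axes 3 to 15 of 1 library (rows) as read in held-out cells of the same library (diagonal) or in another library (columns). The diagonal runs from 2.87 to 3.84 in LARRY and from 2.02 to 2.53 in native libraries, and main mice 1 and 2 share their axes at 3.63 to 3.77.

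Single cells showed the same order. For each cell the highest correlation of its profile with another cell of its library, less its median correlation with all other cells, had a library median of 0.269, 0.265, 0.237 and 0.243 in main mice 1 to 4. It was 0.270 in both replicate mice, 0.208 in the native hematopoiesis library and 0.235 and 0.226 in young libraries 1 and 2. Main mouse 3 and young library 1 almost met. The mean was 0.259 ± 0.0151 (SD, n = 6) in LARRY and 0.223 ± 0.0136 (SD, n = 3) in native marrow, a difference of 0.0358 (exact two-sided permutation p = 0.0238, adjusted p = 0.0357). Without thinning the arms overlapped and the difference was 0.0347 (exact permutation p = 0.0476).

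The highest correlations were reached with cells of the same library or of its partner. Cells of main mouse 1 reached a median highest correlation of 0.266 with cells of their own library, 0.261 with main mouse 2, 0.218 and 0.220 with main mice 3 and 4, and 0.208 to 0.213 with replicate and native libraries. Cells of replicate mouse 1 reached 0.267 in their own library, 0.226 in replicate mouse 2 and at most 0.214 elsewhere. For the native hematopoiesis library the own value was 0.207 and the others 0.198 to 0.203, a much smaller step. Young library 1 reached 0.233 in its own cells and 0.200 to 0.208 elsewhere, and young library 2 reached 0.223 and 0.199 to 0.209. Main mouse 3 had a similar step, with 0.235 in its own cells, 0.236 in main mouse 4 and 0.204 to 0.215 elsewhere.

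A small class of cells had a very near match. A highest correlation above 0.4 within the library was reached by 3.17, 2.17, 0.800 and 1.47% of cells of main mice 1 to 4, and by 3.43 and 4.83% of cells of replicate mice 1 and 2. In the native libraries it was reached by 0.133, 0.900 and 0.867%. Main mouse 3 fell below both young libraries here, so the arms overlapped. The 99th percentile of the highest correlation was 0.705 in main mouse 1 and 0.683 in replicate mouse 2, against 0.380 to 0.513 in the other LARRY and 0.351 to 0.397 in the native libraries.

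The difference was spread over many amplicons. Limma on the log2 mean squared correlation of each amplicon with the others called 211 of 470 amplicons, or 44.9%, at an adjusted p below 0.05. Co-variation was higher in LARRY libraries at 209 (44.5%) and lower at 2 (0.426%). The median difference over all 470 amplicons was 0.71 on the log2 scale, and 424 of them had a positive difference. The 6 LARRY libraries lay above the 3 native ones without overlap at 191 amplicons (40.6%) and below them at 1 (0.213%). Leaving out 1 library gave 126 calls without young library 1 and 147 to 208 without any other. With the 4 experiments as units limma called 43 amplicons, 43 of them higher.

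**Figure D5:**
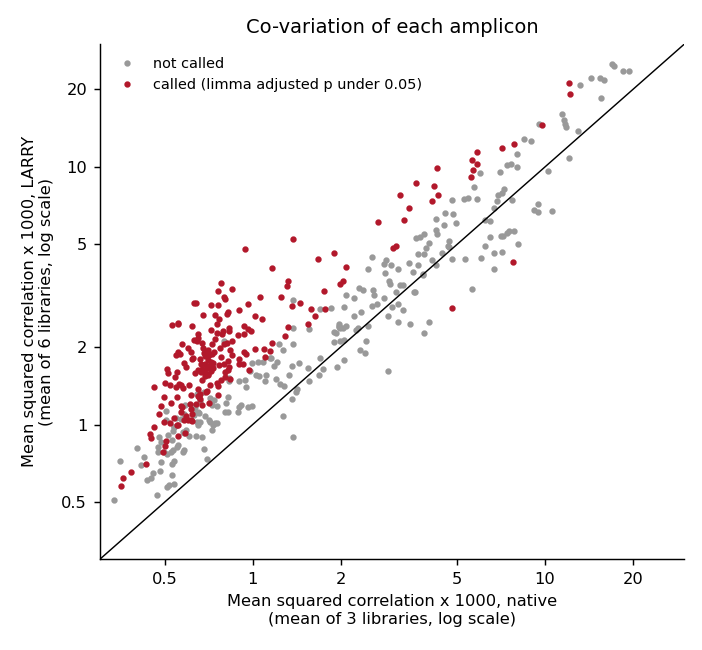
Mean squared correlation of each of 470 amplicons with the others (× 1000, log axes), averaged over 6 LARRY libraries (y axis) and 3 native libraries (x axis), with amplicons called by limma in red and the line of equality. Of the 211 red points, 209 lie above the line, most of them at low native values.

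Amplicons that co-varied most in the native hematopoiesis library were called least often. Split by their level in the native hematopoiesis library, 87 of 157 amplicons of the lowest class, 85 of 156 of the middle class and 39 of 157 of the highest class were called. Since that library also enters the test, its level and the difference are linked by construction. The value that independent amplicons would give, 0.334 (× 1000), was not taken off per amplicon. The lowest class, at 0.330 to 0.648, thus lay at or near that floor. Against the young libraries, whose values did not set the split, LARRY libraries were higher on average at 151, 128 and 107 amplicons of the 3 classes, with median log2 differences of 0.82, 0.94 and 0.47. By mean share, 15 of the 60 amplicons at 10 to 25% were called, against 33.9% at 25 to 50%, 50.6% at 50 to 75% and 57.4% at 75 to 90%.

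The largest rise was at AMPL365953. Its mean squared correlation (× 1000) was 4.21, 5.53, 3.26 and 3.16 in main mice 1 to 4, 3.37 and 9.24 in replicate mice 1 and 2, and 1.04, 0.748 and 1.04 in the native libraries. The log2 difference was 2.24 with a standard error of 0.339 (limma adjusted p = 0.000546), and replicate mouse 2 stood far above the rest. Its share of methylated cells moved as well: AMPL365953 was read in 25.3 to 55.4% of LARRY cells, in 50.1% of the native hematopoiesis library and in 91.2 and 89.1% of young libraries 1 and 2.

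AMPL371317 gave the most even contrast. It had values of 3.45, 3.59, 3.13 and 3.96 in main, 3.62 and 3.46 in replicate, and 0.651, 0.733 and 0.957 in native libraries, a log2 difference of 2.20 with a standard error of 0.222 (limma adjusted p = 8.05e-05). At AMPL371317 the shares overlapped, with 38.0 to 51.9% of LARRY and 31.6 to 61.3% of native cells. AMPL371738 had values of 2.28 to 3.59 in LARRY and 0.508 to 0.736 in native libraries, with shares of 77.1 to 83.1% and 76.4 to 86.0%. At both of these amplicons the shares of the arms overlapped while the squared correlations, which count positive and negative correlations alike, did not. AMPL371812 ran from 1.66 in main mouse 3 to 4.87 in main mouse 1 and from 0.553 to 0.688 in native libraries. These 4 amplicons were called by limma in each fit with 1 library left out, with log2 differences of 1.94 to 2.35.

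AMPL366134 was the 1 amplicon that was called and lower without overlap. It had values of 2.71, 2.40, 2.12 and 2.94 in main mice, 3.72 and 3.12 in replicate mice, and 5.86, 4.82 and 3.78 in native libraries, a log2 difference of -0.77 with a standard error of 0.252 (limma adjusted p = 0.0271). Replicate mouse 1 and young library 2 nearly met, and the call was lost without the native hematopoiesis library (-0.61) and without young library 1 (-0.76). The other called and lower amplicon, AMPL376650, named after its values were seen, had values of 2.13 to 7.15 in the LARRY and 6.32 to 9.08 in the native libraries.

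The amplicons that co-varied most in native marrow also co-varied strongly in LARRY marrow. AMPL365894 averaged 19.3 ± 5.47 (SD, n = 3) in native and 23.7 ± 1.51 (SD, n = 6) in LARRY libraries, AMPL366082 18.6 ± 4.10 and 23.6 ± 1.58, and AMPL366159 17.2 ± 5.89 and 24.6 ± 1.38. None of these 3 passed in limma (adjusted p = 0.249, 0.182 and 0.0685), and at each the native hematopoiesis library, at 22.9 to 24.9, lay within the LARRY range. Their log2 differences were 0.33, 0.37 and 0.57. AMPL366159 passed when the native hematopoiesis library was left out (0.83).

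Amplicons called for their share were called for co-variation about as often as all amplicons were. Of the 470 amplicons, 57 were called for their share and 211 for their co-variation, and 25 for both, which is 43.9% of the first, against 44.9% of all 470, and 11.8% of the second. AMPL371452, read in fewer LARRY cells, was 1 of the 25, with a co-variation of 1.43 to 3.01 in LARRY and 0.423 to 0.626 in native libraries. AMPL371172, with the largest rise in share, had values of 0.734 to 2.73 and 0.650 to 0.977 and was not called for co-variation. Among the 254 amplicons whose shares spanned less than 20 points over the 9 libraries, limma called 142 for co-variation, 141 of them higher.

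For single pairs of amplicons the calls were few and unstable. Limma on Fisher z values called 133 of 110215 pairs, or 0.121%, with 122 more positive (0.111%) and 11 more negative (0.00998%) in LARRY libraries. The LARRY libraries lay above the native ones without overlap at 5005 pairs (4.54%) and below them at 953 (0.865%). Pairs share amplicons and are not independent, so these counts are descriptions. Of the called pairs, 105 were farther from 0 in LARRY marrow, and the median correlation of the 122 more positive ones was 0.158 in LARRY and 0.0529 in native libraries. The 133 pairs held 108 amplicons, and AMPL388291, named after its values were seen, was in 16 of them. There were 0 calls without any 1 of main mice 1 to 4 or either young library (7807 to 11488 pairs at unadjusted limma p below 0.05), 467 without replicate mouse 1, 97 without replicate mouse 2 and 1767 without the native hematopoiesis library.

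AMPL365953 was in each of the 3 pairs with the largest positive difference, with AMPL365901, AMPL366093 and AMPL365905 as partners. Its correlation with AMPL365901 was 0.244, 0.324, 0.214 and 0.197 in main mice 1 to 4, 0.156 and 0.276 in replicate mice 1 and 2, and 0.0400, 0.0318 and 0.0439 in the native libraries. With AMPL366093 it averaged 0.244 ± 0.0648 (SD, n = 6) and 0.0573 ± 0.0216 (SD, n = 3), and with AMPL365905 0.219 ± 0.0534 and 0.0432 ± 0.00415. AMPL365953 thus had correlations of 0.0318 to 0.0822 with these 3 amplicons in native libraries and higher ones in every LARRY library. In 6 of 9 fits with 1 library left out these pairs were not called. AMPL365953 was read in most cells of the young libraries, and its partners averaged 19.2, 13.1 and 27.3% over the 9 libraries. Such unlike shares limit how high a correlation of calls can be in the young libraries. In the native hematopoiesis library the share of AMPL365953 lay within the LARRY range.

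Of the pairs that were more negative in LARRY marrow, AMPL365731 and AMPL376593 were at -0.0942 ± 0.0298 (SD, n = 6) in LARRY and 0.0268 ± 0.0175 (SD, n = 3) in native libraries. AMPL388203 and AMPL376650 were positive in both arms but weaker in LARRY libraries, at 0.1497 ± 0.0335 against 0.265 ± 0.0152. The former pair was thus opposed within LARRY cells and near 0 in native cells. Both pairs were called in 3 of 9 fits with 1 library left out.

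The pattern of which amplicons went together was largely common to all libraries. Across the 110215 pairs, the pair correlations of 2 libraries of the same experiment correlated at r = 0.748 to 0.881, with the highest value between main mice 1 and 2 and 0.840 between main mice 3 and 4. Between LARRY libraries of the 2 experiments r was 0.663 to 0.731, between LARRY and native libraries 0.604 to 0.742, and between the native hematopoiesis and the young libraries 0.628 to 0.634. The range between LARRY libraries of different experiments thus lay within that between LARRY and native libraries. The pairs share amplicons, and libraries of an experiment share their preparation, so no p is given.

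Surface proteins bear on which cells were loaded. They were counted with antibody tags in replicate mouse 1, in main mice 3 and 4 and in the native hematopoiesis library, the last with tags for c-Kit, Sca-1, CD48 and CD150 only. c-Kit, the stem cell factor receptor of progenitors, had at least 10 molecules (UMI) in 44.0, 33.0 and 60.8% of cells of main mouse 3, main mouse 4 and replicate mouse 1 and in 43.7% of native cells. Ter-119, an erythroid marker, reached that level in 5.29 to 7.34% of LARRY cells. Sca-1, found on stem and multipotent cells, reached it in 9.26, 7.44 and 12.2% of LARRY cells, in the same order, and in 5.47% of native cells. CD150 reached it in 4.84, 3.93 and 15.6% of LARRY cells and in 8.43% of native cells. For CD150 both main mice thus lay below the native library and replicate mouse 1 above it. A single UMI does not mark a cell as positive: at least 1 was found for Ter-119 in 48.6 to 53.2% of LARRY cells, and for Sca-1 in 54.5 to 55.7% of LARRY and 41.8% of native cells. CD48, which is low on stem cells, took 59.7, 59.2 and 61.0% of the UMI of these 4 tags per LARRY cell and 76.3% per native cell, and c-Kit 29.6, 28.3 and 28.0% against 16.3%. Tag totals differed between the libraries, with 1 native library there is no replicate of the native arm, and the young libraries cannot be checked in this way. The part of these phenotypes in the difference in co-variation was not tested.

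Antibody tag counts went along with axes 1 and 2 and, in all 4 libraries with protein counts, also with some of the next axes. Each axis was fitted on levels of c-Kit, Sca-1, CD48 and CD150 and the total tag count, in cells with at least 100 UMI. The total was not fitted alone, so its part cannot be told apart from that of the proteins. The total and this limit counted every tag of a library: 20 in main mice 3 and 4, 19 in replicate mouse 1 and 4 in the native hematopoiesis library. LARRY and native values are therefore not fully like for like. These terms accounted for 26.1, 19.3 and 54.7% of the variance of axis 1 in main mouse 3, main mouse 4 and replicate mouse 1, and for 30.7% in the native hematopoiesis library. Of axis 2 they accounted for 27.3, 22.9 and 27.9% and 19.99%. In main mouse 3 they accounted for 15.7, 21.6 and 32.9% of axes 3 to 5, and in main mouse 4 for 16.7 to 23.4% of axes 3 to 6. In replicate mouse 1 the values were 18.8 and 10.4% for axes 3 and 4. In the native hematopoiesis library the highest later values were 10.4% at axis 4 and 20.1% at axis 6. With all 20 tags of main mice 3 and 4, the values rose to 38.4 to 46.1% for the former axes and 24.3 to 53.7% for the latter. All 19 tags of replicate mouse 1 gave 26.1, 40.2, 14.4 and 23.2% for axes 3 to 6. From axis 7 to axis 15 the 4 proteins with the total tag count accounted for 0.151 to 7.51% of an axis in all 4 libraries. With all tags these later axes reached 1.45 to 9.57% in main mice 3 and 4 and 2.63 to 15.6% in replicate mouse 1. The median over axes 3 to 15 was 2.80, 1.96 and 4.75% in the LARRY libraries and 3.53% in the native one.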

How the data were processed

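The deposited tables hold counts of sequencing reads per cell and amplicon, not normalized, as the design text of the series and the values show. They come from scTAM-seq on Mission Bio Tapestri per the labels' protocols, with the genome build mm10 per the submitters' processing notes. Antibody files hold UMI counts per cell and tag, per the file headers. For the aligner, the cell caller and any cell filter: not given in the sources used here. Old, transplantation and tissue libraries were not used here.

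An amplicon counted as methylated in a cell with at least 1 thinned read. Libraries, grouped by their titles, were the replicates. LARRY libraries are titled by mouse and young native libraries by number only, so p-values measure the spread between these samples, which may be technical. Members, lists and measures were chosen with earlier results of these data known.

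Shares were tested with edgeR 4.0.16 in R 4.3.3 (quasi-likelihood, 1 intercept per library, loess dispersion trend because the default failed in some settings) over amplicons whose share averaged 2 to 98%. Co-variation per amplicon and pair was tested with limma 3.58.1 and library values by exact permutation, all with Benjamini-Hochberg adjustment at 0.05. Alternatives included DESeq2 1.42.0 and edgeR on summed reads, no thinning, a call at 5 reads, leaving out the 5% of cells with most amplicons, other covariates and each library left out. Scripts were tested on simulated data. Doublets were not called.

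Named amplicons were the 5 called amplicons without overlap with the largest rise and the 5 with the largest fall in log odds, up to 4 in each direction for co-variation, 3 pairs in each direction, and the 3 with the highest native co-variation. Of the pairs, 1 is not reported here.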

Additional observations from a re-analysis of the deposited data

Results flagged for a closer look

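Of 54 groups of 4 or 6 libraries checked for a library far from the others, 4 held one, where chance marks about 1 in 20. Among the main mice, main mouse 3 had a co-variation of 2.59 (× 1000) against 2.95 in the next library, a gap of 0.867 of the group's range. AMPL376402 was read in 95.9% of cells of main mouse 1 and in 94.5% of the next library, a gap of 0.832 of the range of the main mice and 0.674 of that of the 6 LARRY libraries. AMPL371172 was read in 77.2% of cells of replicate mouse 1 against 87.0% in the next LARRY library, a gap of 0.754 of the range.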

How the results depend on the processing

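The difference in mean share kept its sign in each alternative except for replicate mice against native libraries, where it was 0.419 points, and it ran from -4.26 to -2.83 points with 1 library left out. The co-variation difference kept its direction, without overlap of the arms, in all alternatives run, at 0.558 to 1.37. The arms nearly met at 5 reads, with 1.63 in main mouse 3 and 1.62 in the native hematopoiesis library. They also nearly met with the cell's methylated share as a further covariate, at 1.94 and 1.92 in these libraries. The SD of the native libraries was 0.166 and 0.192 in these settings. Tests too small to reach 0.05 gave 0.784 (main mice only), 1.37 (replicate mice only) and 1.08 (experiment means). Chosen after seeing the data, others of this kind gave 0.622 (cells without a Sca-1 UMI) and 1.29 (cells with one). That split does not separate Sca-1 positive from negative cells. With 1 library left out the difference was 0.872 to 1.08. The exact permutation p was 0.0357 in the 6 fits without a LARRY library and cannot go below 0.0714 in the 3 without a native library. The nearest cell difference was 0.0303 for main mice only, 0.0470 for replicate mice only, 0.0423 for experiment means and 0.0285 to 0.0419 with 1 library left out.

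The count of shares called was 18 without thinning, 39 at 5 reads and 43 with a term for whether a library had protein counts. It was 136 for main mice only and 0 for replicate mice only (132 at unadjusted edgeR p below 0.05). Limma on experiment means called 0 (37 at unadjusted p below 0.05). The count was 10 by edgeR on summed reads and 0 to 106 with 1 library left out. DESeq2 on summed reads called 78, 44 of them higher. With the replicate block edgeR called 0 amplicons (124 at unadjusted p below 0.05, against 150 without the block and 73 adjusted calls in limma). Same-numbered LARRY and native libraries had deviations correlated at -0.472 to 0.261, so the numbers do not pair the samples.

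Co-variation per amplicon gave 43 calls on experiment means and 126 to 208 with 1 library left out. Pairs gave 334 calls without thinning, 0 on experiment means (6343 at unadjusted limma p below 0.05) and 0 to 1767 with 1 library left out. The causes were not tested. Depth limits shares near 0 and 100%, and 3 native libraries from 2 experiments limit every comparison.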
